A study of Mus musculus with 298 samples.

Results

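S100a8, S100a9, Csf3r, Cxcr2, Cxcr4, Fpr1 and Fpr2 are genes of the mature neutrophil: a pair of alarmins, the receptor for the growth factor G-CSF, and receptors that steer the cell out of the marrow and towards damaged or infected tissue. They were chosen by name, and 7 of 7 were among the 14605 genes of the deposited expression table. Their mean level passed the filter of 1 TPM for 7 of 7, where TPM is the share of a library's transcripts, corrected for gene length and scaled to a fixed total. The question set for them was how their blood levels moved, week by week, as chronic myeloid leukaemia (CML) was switched on, treated or switched off again.

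RNA of blood from 20 mice was sequenced in 298 libraries, 1 for each mouse and week. Every mouse, controls included, was a C57BL/6 animal of 6 to 8 weeks with the genotype tTA+/-, BCR-ABL+/-, male or female. In this SCLtTA/BCR-ABL model, a transactivator made from a regulatory element of the Scl gene in blood stem and progenitor cells turns on the human BCR-ABL fusion once tetracycline (Tet) is taken out of the drinking water. The TKI cohort (7 mice, 99 libraries) had Tet withdrawn at week 0 and took nilotinib, a BCR-ABL kinase inhibitor, at 50 mg/kg by daily gavage for 4 weeks from week 6 to week 10, with the transgene left on to the end. The TOTO cohort (4 mice, 48 libraries) had Tet withdrawn for 6 weeks and then given back until week 18. The CML cohort (6 mice, 94 libraries) had Tet withdrawn and no treatment. The control cohort (3 mice, 57 libraries) stayed on Tet water at 0.5 g/L. Of the 7 TKI mice 6 had a library after week 10, and 3 of the 6 CML mice had blood at week 18. The labels do not place the week 6 sample before or after the first dose or the return of Tet.

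S100A8 and S100A9 pair into calprotectin, the main calcium-binding protein of neutrophil cytosol, which binds zinc and manganese and, once released, signals through the receptors TLR4 and RAGE. CSF3R carries the G-CSF signal for neutrophil production. CXCR2 answers ELR chemokines such as CXCL1 and CXCL2 and draws neutrophils out of the marrow, while CXCR4 answers CXCL12 and holds them there. FPR1 and FPR2 sense formylated peptides of bacteria and mitochondria, and FPR2 also binds serum amyloid A, annexin A1 and the cathelicidin peptide. CXCR4 is also made by B cells, T cells, monocytes and platelets, so in whole blood its transcript is not particular to neutrophils.

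On GRCm39 (GENCODE M39), S100a8 (ENSMUSG00000056054.10) lies at chr3:90567118-90578128 on the plus strand and S100a9 (ENSMUSG00000056071.13) at chr3:90599931-90603071 on the minus strand. Csf3r (ENSMUSG00000028859.15) lies at chr4:125918262-125938236 on the plus strand. Cxcr2 (ENSMUSG00000026180.9) is at chr1:74193150-74200405 on the plus strand and Cxcr4 (ENSMUSG00000045382.7) at chr1:128515936-128520044 on the minus strand. Fpr1 (ENSMUSG00000045551.8) is at chr17:18096733-18104202 on the minus strand and Fpr2 (ENSMUSG00000052270.8) at chr17:18108070-18114215 on the plus strand, so that the alarmins and the formyl peptide receptors each sit as neighbours on opposite strands. The values are gene totals, so they do not separate exons, introns or untranslated parts.

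Because 6 of the 7 genes moved together, their promoters were searched for the motifs of the factors that direct the neutrophil programme. The windows are RefSeq promoters of GRCm38.p6, from 250 bases before to 50 bases after the start, and 7 of 7 genes matched. The motifs were C/EBP (TTGCNNAA), STAT (TTCNNNGAA) and PU.1 (GAGGAAGT), on both strands and without overlap among the matches found. The windows of S100a8 (chr3:90668821-90669120, plus strand), S100a9 (chr3:90695672-90695971, minus strand) and Fpr2 (chr17:17887574-17887873, plus strand) each held 1 match, and that of Cxcr4 (chr1:128592250-128592549, minus strand) held none. They are printed 5′ to 3′ with the matched letters in capitals, since these are the 3 genes with a match and the gene whose levels stood apart.
S100a8: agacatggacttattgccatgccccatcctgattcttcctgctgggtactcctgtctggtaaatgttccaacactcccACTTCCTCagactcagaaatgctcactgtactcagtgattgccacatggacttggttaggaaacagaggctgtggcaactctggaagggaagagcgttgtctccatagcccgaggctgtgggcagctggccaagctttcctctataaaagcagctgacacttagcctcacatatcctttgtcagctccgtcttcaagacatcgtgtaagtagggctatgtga
S100a9: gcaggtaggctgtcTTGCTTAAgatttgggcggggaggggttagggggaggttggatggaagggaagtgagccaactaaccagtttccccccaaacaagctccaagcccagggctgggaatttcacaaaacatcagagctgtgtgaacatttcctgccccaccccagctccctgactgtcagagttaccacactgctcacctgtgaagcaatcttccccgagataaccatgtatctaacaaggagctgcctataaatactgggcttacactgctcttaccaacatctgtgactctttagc
Fpr2: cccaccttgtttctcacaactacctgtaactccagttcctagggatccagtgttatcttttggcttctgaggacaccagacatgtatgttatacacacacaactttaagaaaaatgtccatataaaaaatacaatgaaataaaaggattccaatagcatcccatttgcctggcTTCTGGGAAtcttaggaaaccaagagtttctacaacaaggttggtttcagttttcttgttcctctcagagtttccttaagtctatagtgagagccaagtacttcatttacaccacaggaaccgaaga
Cxcr4: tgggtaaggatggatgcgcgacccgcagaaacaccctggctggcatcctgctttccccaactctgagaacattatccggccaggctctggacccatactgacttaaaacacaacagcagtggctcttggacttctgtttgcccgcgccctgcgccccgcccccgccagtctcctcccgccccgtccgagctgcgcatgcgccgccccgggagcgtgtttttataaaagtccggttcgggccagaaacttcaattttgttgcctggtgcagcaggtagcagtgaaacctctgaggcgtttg
The S100a8 match was PU.1, on the minus strand, 172 bases before the start. The S100a9 match was C/EBP, 236 bases before the start, and the Fpr2 match was STAT, 77 bases before it. Over all 32851 RefSeq promoters of that length, 10.8% held the C/EBP letters, 8.3% the STAT letters and 3.2% the PU.1 letters. The windows of Csf3r, Cxcr2 and Fpr1 held none of the 3 motifs.

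The labels call the tissue PBMC, a preparation that removes most neutrophils, but the protocol extracted RNA from whole blood. Of the other mature neutrophil genes on the list, 20 of 20 had a row in the deposited table. Such a row does not tell whole blood from PBMC. Haemoglobin genes took 0.331% to 74.8% of a library, with a median of 42.6%, and the scaling factor that brings the libraries to a common median ratio ran between 0.134 and 3.84. Because a TPM is a share, each change is given as deposited and, where the call or the direction differs, after that rescaling. 1 control library, that of mouse 490 at week 17, stood apart with a median correlation of 0.445 with the others, against a median of 0.940 over all, and none of the tests below used week 17. The human BCR-ABL row was at or below 0.716 TPM in 57 of 57 control libraries. In 1 CML mouse, 487, it did not follow the label: it was at 0 at weeks 0, 6, 8 and 10, and its highest value at any week was 0.4085 TPM, at week 18. Leaving out mouse 487 changed no call of the 7 genes in the comparisons with CML mice. Bulk RNA cannot tell fewer neutrophils apart from less RNA per neutrophil.

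Over all libraries the alarmins ran far above the receptors. S100a9 averaged 2959 TPM, and stood 24th of all genes by its mean rank over the libraries, and S100a8 averaged 1826 TPM. Csf3r averaged 123 TPM, Cxcr4 59.0 TPM, Cxcr2 47.1 TPM, Fpr2 29.9 TPM and Fpr1 17.5 TPM. The log2 difference of S100a8 over S100a9 was below 0 in 298 of 298 libraries, with a median of -0.57 in TKI, -0.90 in TOTO, -0.76 in CML and -1.07 in control libraries. Cohort medians over all weeks put the alarmins and the formyl peptide receptors in the order TKI, CML, TOTO and control; for S100a9 they were 2713 TPM in TKI, 1065 TPM in TOTO, 1602 TPM in CML and 508 TPM in control libraries. The ranges overlapped throughout, from 120 to 23150 TPM in TKI, 76.7 to 10780 TPM in TOTO, 80.6 to 18460 TPM in CML and 93.9 to 4249 TPM in control libraries. Cxcr4 had no such order: its medians were 49.4 TPM in TKI, 51.1 TPM in TOTO, 42.5 TPM in CML and 55.8 TPM in control libraries.

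Week by week, the TKI median of S100a9 was 489 TPM at week 0, 1271 at week 1, 3947 at week 2, 1475 at week 3, 4081 at week 4, 4805 at week 5 and 7161 at week 6. The TOTO median had its early peak at week 2, at 6005 TPM, and stood at 3567 TPM at week 6. The CML median was 2113 TPM at week 2 and 1345 TPM at week 6, and the control median was 508 TPM at week 2 and 241 TPM at week 6. The path was thus uneven from week to week in each cohort, and the tests below use fixed weeks.

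**Figure D1:**
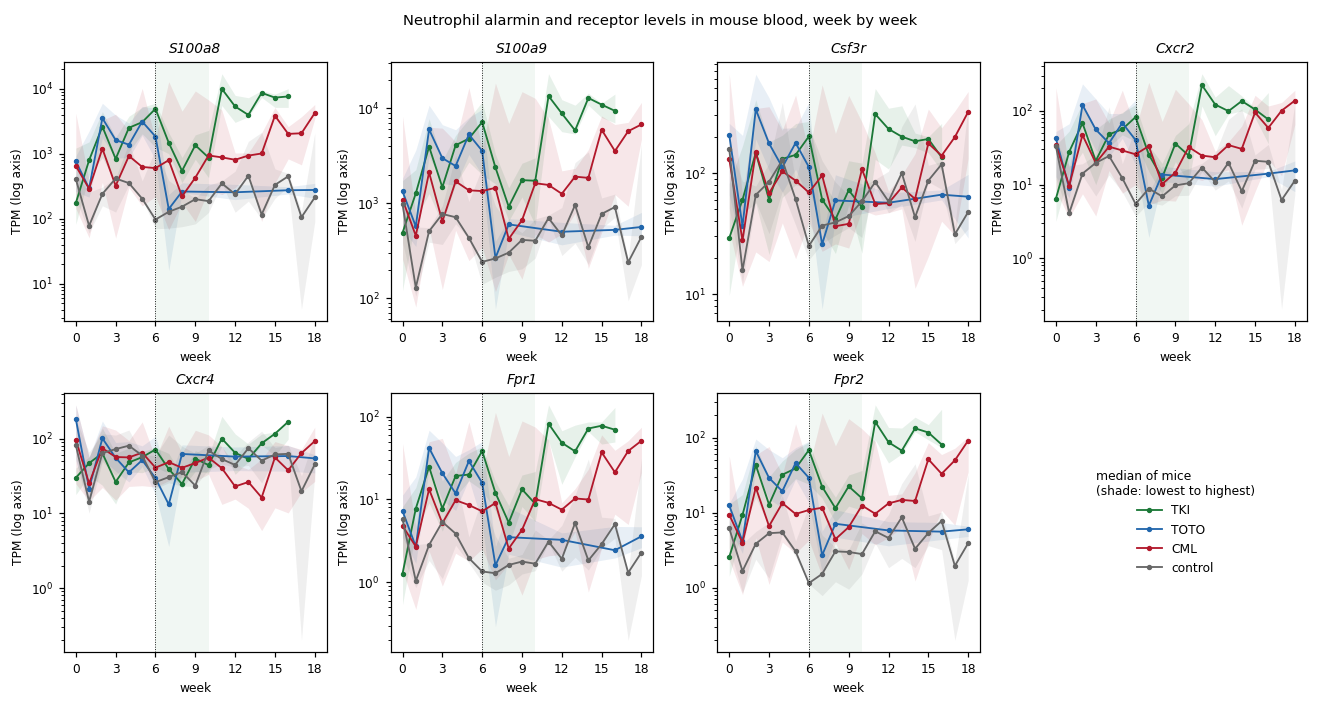
Levels of the 7 genes by week on log axes (TPM); points and lines are medians of the mice of a cohort, shading runs between the lowest and the highest mouse, the dotted line marks week 6 and the pale green band the nilotinib weeks, and values under 0.2 TPM are drawn at 0.2. The TKI median falls after week 6 and is higher at week 11 than at week 10 in 7 of 7 panels, the TOTO median falls at week 7, and the cohorts lie closest together for Cxcr4.

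The comparison of week 6 with week 0 asked what BCR-ABL induction did to these genes. Pooled over the 17 mice off Tet, 5 of 7 genes rose: S100a8, S100a9, Cxcr2, Fpr1 and Fpr2. Csf3r changed by 0.65 on the log2 scale (SE 0.40, adjusted p = 0.231) and Cxcr4 by -0.44 (SE 0.38, adjusted p = 0.404), and neither passed. Changes are means over mice of log2(TPM + 1) differences, which understate the change of low genes, tested with limma and Benjamini-Hochberg adjustment over 10519 genes. Of those genes, 4.21% were called higher and 16.4% lower in this comparison.

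For the alarmins, S100a9 was at 2003 to 11750 TPM (median 7161) at week 6 in TKI mice, against 120 to 1735 TPM (median 489) at week 0. In the TOTO mice 476, 482, 483 and 545 it was at 1993, 2312, 4822 and 9769 TPM at week 6, against 1338, 1829, 1328 and 539 TPM at week 0. In CML mice it was at 346 to 3778 TPM (median 1345) at week 6, against 258 to 8264 TPM (median 1095) at week 0. The TKI ranges of the 2 weeks did not overlap and 4 of 4 TOTO mice were higher at week 6, whereas the CML range at week 6 lay within that at week 0 and 4 of 6 CML mice were higher. The pooled change of S100a9 was 1.93 (SE 0.39, adjusted p = 0.000549, higher in 15 of 17 mice), and that of S100a8 was 1.88 (SE 0.41, adjusted p = 0.00127, 13 of 17). By cohort the S100a9 change was 3.69 ± 1.04 in TKI (SD, n = 7), 1.74 ± 1.76 in TOTO (SD, n = 4) and 0.02 ± 1.74 in CML mice (SD, n = 6).

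The receptors split by gene. Fpr1 rose by 1.70 (SE 0.38, adjusted p = 0.00182) and Fpr2 by 1.90 (SE 0.39, adjusted p = 0.000683), each in 14 of 17 mice. Fpr2 was at 24.1 to 87.1 TPM (median 68.7) at week 6 in TKI mice, against 1.43 to 13.0 TPM (median 2.58) at week 0. Cxcr2 rose by 1.19 (SE 0.41, adjusted p = 0.0352, 12 of 17 mice), a call that was lost when any of 7 mice (477, 507, 508, 512, 513, 514 or 545) was left out, with an adjusted p of up to 0.0791. Csf3r passed after rescaling, at 1.02 (adjusted p = 0.000482), where 35.2% of all genes were called higher. Cxcr4 was higher at week 6 than at week 0 in 7 of 7 TKI mice, 1 of 4 TOTO mice and 2 of 6 CML mice. Within the batch of the labels that ends in A, S100a9 changed by 3.90 in 4 TKI, 1.74 in 4 TOTO and 0.43 in 2 CML mice, against -1.45 in 1 control mouse. In the batch that ends in B it changed by 3.397 in 3 TKI and -0.87 in 2 CML mice. The batch that ends in E held no TKI or TOTO mouse, and there it changed by 0.4991 in 2 CML and -0.40 in 2 control mice, so the comparison of TKI and TOTO mice with controls rests within a batch on 1 control mouse.

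Control mice did not stay level over the same 6 weeks. S100a9 was at 140, 241 and 2392 TPM at week 6 in control mice 488, 489 and 490, against 384, 1026 and 977 TPM at week 0, so it was lower in mice 488 and 489 and higher in mouse 490. Control mouse 490 again had 4249 TPM of S100a9 at week 18, just under the lowest CML mouse of that week (4719 TPM), while its BCR-ABL row was at 0 TPM at week 6 and 0.632 TPM at week 18. That CML mouse was 487, whose BCR-ABL row was at 0.4085 TPM at week 18. When the change in controls was subtracted, 0 of 7 genes passed (limma, adjusted p of 1 for each), with 5 of 7 at an unadjusted p under 0.05 and 0.0190% of all genes called. The differences ran between 1.07 for Cxcr4 (SE 0.99) and 2.68 for S100a9 (SE 1.00). After rescaling, 1 of 7 passed, Fpr2 at 2.32 (adjusted p = 0.0323), where 8.36% of all genes were called higher. As deposited and without control mouse 490, 0 of 7 passed. The starting libraries differed too: at week 0 haemoglobin took a median of 58.1% in TKI, 13.2% in TOTO, 34.9% in CML and 30.6% in control libraries, and its part in these changes was not tested.

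Around these genes, other parts of the neutrophil chemotaxis system moved in the same 17 mice, where 4.21% of all genes were called higher and 16.4% lower. With the change in controls subtracted, 0.0190% of all genes were called, so the counts below describe the change in these mice alone. Of the 7 ligands tested, 5 rose and 0 fell, among them Saa3 (serum amyloid A, 4.20), Camp (cathelicidin, 4.41) and Anxa1 (annexin A1, 1.70), which are ligands of FPR2. Of 17 other chemoattractant receptors, 8 rose and 2 fell: C5ar1, the receptor for complement C5a, rose by 1.48, Ltb4r1, the leukotriene B4 receptor, by 1.70 and Mrgpra2b by 1.73. Of 7 other S100 genes 3 rose, including S100a6 (1.95) and S100a11 (1.31), and of 12 alarmin receptors and adaptors 2 rose, Cd14, the TLR4 co-receptor (2.35), and Cd33 (1.84). Of 22 signalling genes below these receptors 0 rose and 0 fell, and the list's median of 0.09 stood beside -0.34 for all genes. Of 13 G-CSF and neutrophil transcription factor genes 3 rose, including Cebpb (1.15) and Cebpe (1.23), the C/EBP factors of stress and terminal granulopoiesis.

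Markers of neutrophil stage moved along with them. Of 20 other mature neutrophil genes 10 rose (Ly6g 2.501, Retnlg 2.76, Mmp9 1.47) and of 13 secondary granule genes 11 rose (Ngp 5.64, Ltf 4.80), with a median of 2.61 for the secondary granule list against 1.70 for the 7 genes. The primary granule gene Prtn3 rose by 2.21, and the basophil protease gene Mcpt8 by 2.59. These are single genes from lists of 6 primary granule and 6 basophil and mast cell genes, whose counts are not given here. Of 10 B cell genes, 10 fell. In this comparison 4.21% of all genes were called higher and 16.4% lower. The lists were chosen with results of these data known, so their counts describe these samples and give no independent support.

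In untreated CML mice at their last blood, no difference of the 7 genes from controls passed as deposited. The end times differed: the last blood was at week 7 in CML mouse 477, week 11 in 484, week 16 in 542 and week 18 in 480, 487 and 541. Control mice ended at week 18. At the last blood of each CML mouse S100a9 was at 4719 to 18460 TPM, apart from mouse 542, which was at 2097 TPM, whereas control mice 488, 489 and 490 at week 18 were at 444, 226 and 4249 TPM. From week 0 to the last week S100a8 changed by 2.93 ± 1.88 in CML (SD, n = 6) and -0.00 ± 2.16 in control mice (SD, n = 3), and it was higher in 6 of 6 CML mice. The difference was 2.93 for S100a8 (SE 0.93, adjusted p = 0.743), 2.72 for S100a9 (SE 0.92), 2.69 for Fpr2 (SE 0.93), 2.44 for Fpr1 (SE 0.93), 1.81 for Cxcr2 (SE 0.98), 1.11 for Csf3r (SE 1.00) and 0.17 for Cxcr4 (SE 0.94). 0 of 7 passed (limma), 4 of 7 had an unadjusted p under 0.05, and 0.0665% of all genes were called. After rescaling 4 of 7 passed, S100a8 (2.84), S100a9 (2.62), Fpr1 (2.49) and Fpr2 (2.77), where 3.75% of all genes were called higher. Within the batch that ends in A, S100a9 changed by 2.49 in 2 CML mice and 0.21 in 1 control mouse, and within the batch that ends in E by 3.76 in 2 CML and -0.03 in 2 control mice; the 2 CML mice of the batch that ends in B (2.05) had no control beside them. Among the granule genes Ngp (7.04), Camp (6.08), Ltf (5.24) and Itgb2l (4.04) passed as deposited.

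Nilotinib was followed by a fall of 7 of 7 genes within 2 weeks. S100a9 was at 652 to 1456 TPM (median 920) at week 8 in TKI mice, against 2003 to 11750 TPM (median 7161) at week 6, and the ranges did not overlap. S100a8 was at 361 to 880 TPM (median 547) at week 8, against 1264 to 6036 TPM (median 4949) at week 6. The falls were the same in sign in 7 of 7 mice for 7 of 7 genes, where 36.0% of all genes were called lower. The changes were -2.75 for S100a8 (SE 0.35, adjusted p = 4.38e-06), -2.68 for S100a9 (SE 0.31, adjusted p = 1.58e-06), -2.17 for Csf3r (SE 0.31), -2.59 for Cxcr2 (SE 0.32), -2.34 for Fpr1 (SE 0.29) and -2.27 for Fpr2 (SE 0.31).

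The fall of Cxcr4 was the smallest of the 7. It was at 21.8 to 32.2 TPM (median 24.8) at week 8 in TKI mice, against 41.7 to 75.7 TPM (median 71.8) at week 6, a change of -1.30 (SE 0.28, adjusted p = 0.00113). After rescaling, the Cxcr4 change in single TKI mice ran between -0.843 and -0.336, against -1.75 and -0.362 as deposited. For S100a9 it ran between -3.06 and -1.07 after rescaling, against -3.88 and -1.44 as deposited. Cxcr2 was at 7.46 to 19.3 TPM (median 12.4) at week 8, against 38.5 to 121 TPM (median 82.1) at week 6. In both batches of TKI mice the order held: Cxcr2 changed by -2.91 in the batch of the labels that ends in A (4 mice) and -2.17 in the batch that ends in B (3 mice), and Cxcr4 by -1.52 and -1.001 in those batches.

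At week 10, still on nilotinib, the median levels lay between those of weeks 6 and 8. S100a9 was at 589 to 3009 TPM (median 1727) at week 10 in TKI mice, so 6 of 7 were below their own week 6 value, and mouse 513 was at 2078 TPM against 2003 TPM. From week 6 to week 10, 6 of 7 genes fell, with changes of -1.41 (Fpr1) to -1.97 (S100a9), where 4.84% of all genes were called lower. Cxcr4 changed by -0.51 (SE 0.25, adjusted p = 0.246) and was lower in 7 of 7 mice. After rescaling it passed, at -0.53 (adjusted p = 0.00489), where 17.2% of all genes were called lower. The Fpr1 call was lost without mouse 502, 507 or 508 (adjusted p of up to 0.0859). The BCR-ABL row did not follow: it was at 4.29 to 21.0 TPM at week 10, against 4.58 to 36.0 TPM at week 6, a change of -0.09 (SE 0.26, adjusted p = 0.899), after 1.96 to 4.96 TPM at week 8.

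The change from week 6 to week 10 was then set against that in untreated CML mice. It was lower in TKI mice for 6 of 7 genes, where 3.38% of all genes were called lower. S100a9 changed by -1.97 ± 1.22 in TKI (SD, n = 7) and by 1.18 ± 1.197 in CML mice (SD, n = 5), a difference of -3.14 (SE 0.65, adjusted p = 0.00985). The 5 CML mice with both weeks, 480, 484, 487, 541 and 542, had 2324, 12730, 469.5, 1626 and 828.5 TPM at week 10, against 2318, 2197, 493.1, 365 and 346 TPM at week 6, so that mouse 484 was far above the rest. TKI mice were at 589 to 3009 TPM at week 10, against 2003 to 11750 TPM at week 6. The cohorts thus overlapped in level at week 10 after mostly higher TKI levels at week 6, and the test is of the change. The differences were -3.11 for S100a8 (SE 0.67, adjusted p = 0.0117), -2.49 for Cxcr2 (SE 0.57, adjusted p = 0.0154), -2.24 for Csf3r (SE 0.51, adjusted p = 0.0155), -2.27 for Fpr1 (SE 0.57, adjusted p = 0.0232) and -2.49 for Fpr2 (SE 0.58, adjusted p = 0.0158). Cxcr4 differed by -1.08 (SE 0.39, adjusted p = 0.162), and passed after rescaling at -0.84 (adjusted p = 0.0101), where 11.6% of all genes were called lower. Without CML mouse 484, 0 of 7 genes passed and S100a9 stood at -2.80 (adjusted p = 0.0506). Without CML mouse 541, 2 of 7 passed, and with week 9 in place of week 10, 0 of 7. The Fpr1 call was also lost without TKI mouse 502, 507 or 508 (adjusted p of up to 0.0704). Within the batch that ends in B, which held 3 TKI and 2 CML mice, S100a9 changed by -1.28 in TKI and by 0.59 in CML mice, and within the batch that ends in A by -2.48 in 4 TKI mice and 2.53 in 1 CML mouse. The other 2 CML mice (1.08) were of the batch that ends in E, which held no TKI mouse.

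The neighbouring genes behaved in a like manner in this difference, where 3.38% of all genes were called lower. The counts below rest on the same CML mice. How they depend on single mice or on the end week is not given here. Of 17 other chemoattractant receptors 8 were lower and 0 higher, including C5ar1 (-2.17), Ltb4r1 (-1.66), Mrgpra2b (-2.45) and Ptafr, the receptor for platelet-activating factor (-1.77). Of 7 ligands 2 were lower, Camp (-3.28) and Anxa1 (-2.64), and of 7 other S100 genes 2, S100a6 (-2.31) and S100a11 (-2.28). Cd14 (-2.66) and Cd33 (-2.83) were the 2 lower of 12 alarmin receptors and adaptors. Of 13 G-CSF and transcription factor genes 4 were lower, Cebpb (-1.72), Cebpd (-1.57), Cebpe (-1.87) and Spi1, which encodes PU.1 (-1.79). Of 20 mature neutrophil genes 13 were lower (Ly6g -2.90, Retnlg -2.88, Mmp9 -2.72) and of 13 secondary granule genes 11 (Ngp -3.83), while 0 of 22 signalling genes passed. The median over the 7 genes was -2.49, against -0.12 over all genes tested.

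**Figure D2:**
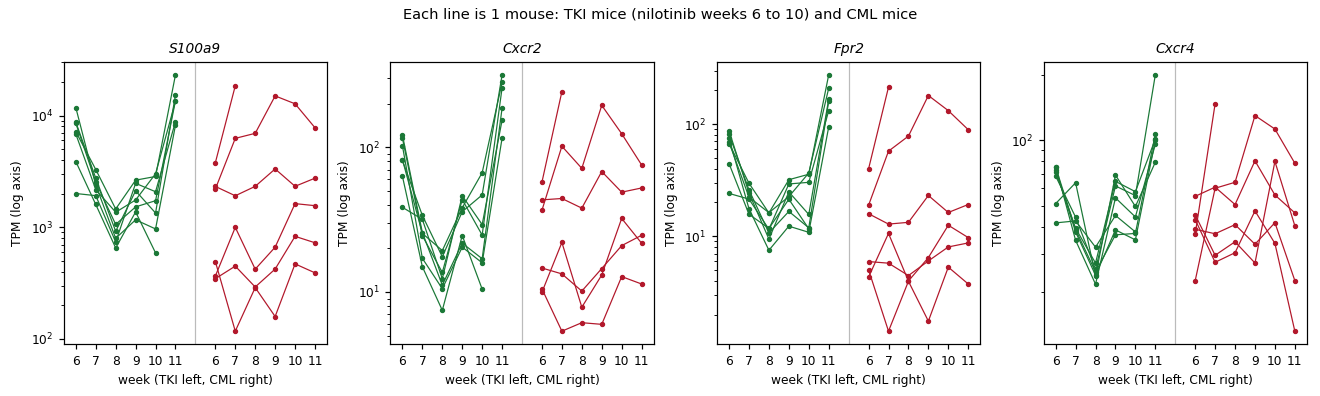
S100a9, Cxcr2, Fpr2 and Cxcr4 by week (weeks 6 to 11, TPM on log axes) with 1 line for each mouse, TKI mice on the left and CML mice on the right of each panel. The 7 TKI mice lie between 652 and 1456 TPM of S100a9 at week 8, and the 6 with a week 11 library stand at 8199 to 23150 TPM there.

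When nilotinib ended, 7 of 7 genes rose within 1 week. S100a9 was at 8199 to 23150 TPM (median 13500) at week 11 in the 6 TKI mice with that library, against 589 to 3009 TPM at week 10 in the cohort, and the ranges did not overlap. Fpr2 was at 94.2 to 276 TPM (median 164) at week 11, against 10.8 to 36.7 TPM (median 15.6) at week 10. Cxcr2 was at 116 to 317 TPM (median 222) at week 11, against 10.5 to 66.7 TPM (median 24.7) at week 10, and Cxcr4 was at 79.3 to 200 TPM (median 101), against 34.8 to 58.0 TPM (median 44.4). The S100a9 range at week 11 overlapped that at week 6, 2003 to 11750 TPM, with a higher median.

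The step from week 10 to week 11 was 2.95 for S100a8 (SE 0.23, adjusted p = 1.36e-09), 2.81 for S100a9 (SE 0.23, adjusted p = 2.63e-09), 2.91 for Fpr2 (SE 0.20), 2.78 for Cxcr2 (SE 0.20), 2.65 for Fpr1 (SE 0.20), 2.08 for Csf3r (SE 0.22) and 1.23 for Cxcr4 (SE 0.19). 6 of 6 mice went up for each gene, and 30.2% of all genes were called higher over this step. It was tested in TKI mice alone, without the change in CML or control mice subtracted. S100a8 and S100a9 together took a median of 0.248% of a library at week 10 and 2.37% at week 11 in TKI mice. In control mice the medians of those weeks were 0.059% and 0.106%, and in CML mice 0.257% and 0.244%. Week 11 as an end was chosen after seeing the data. The libraries shifted at the same bleed: haemoglobin took a median of 2.41% (0.331% to 24.7%) at week 11 in TKI mice, against 28.4% (12.8% to 45.1%) at week 10. After rescaling, the S100a9 step was 2.48 (adjusted p = 1.09e-06). The BCR-ABL row was at 3.67 to 24.6 TPM at week 11, a change of -0.34 from week 10 (SE 0.17, adjusted p = 0.111).

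Up to the last blood, 7 of 7 genes were higher than at week 10 in 6 of 6 mice, where 9.61% of all genes were called higher and 15.9% lower. The last blood was at week 16 in 3 mice, week 12 in 1 and week 11 in 2, so for mice 511 and 513 it is the same step as above. S100a8 was higher by 2.61 (SE 0.46, adjusted p = 9.45e-05), S100a9 by 2.44 (SE 0.45, adjusted p = 0.000141) and Cxcr4 by 1.23 (SE 0.38, adjusted p = 0.0145). The Cxcr4 call was lost without mouse 507 (adjusted p = 0.0768) or 512 (adjusted p = 0.0527). Anxa1 (3.06), C5ar1 (2.33), Cd14 (3.36), Retnlg (2.90) and Ngp (3.74) rose beside them, and of 20 mature neutrophil genes 15 rose. Saa3 changed by 1.16 and did not pass. Of 10 B cell genes 10 fell, and of 10 platelet genes 10 fell.

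Switching the transgene off was followed by a fall of 6 of 7 genes that was still there at week 18. In the TOTO mice 476, 482, 483 and 545 the BCR-ABL row was at 0 TPM in 4 of 4 at week 8, and at 1.54, 6.37, 16.0 and 4.91 TPM at week 6. S100a9 was at 533, 499, 665 and 689 TPM at week 8, against 1993, 2312, 4822 and 9769 TPM at week 6. At week 18 it was at 672, 454, 454 and 801 TPM. The 4 mice were far apart at week 6 and close together at weeks 8 and 18, and no value from week 7 on reached the lowest week 6 value.

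From week 6 to week 8, 6 of 7 genes fell, where 4.48% of all genes were called lower and 69.7% higher. S100a8 and S100a9 each changed by -2.70 (SE 0.47 and 0.40, adjusted p = 4.31e-05 and 8.34e-06), Fpr2 by -1.96 (SE 0.41), Fpr1 by -1.78 (SE 0.38), Cxcr2 by -1.59 (SE 0.42) and Csf3r by -1.04 (SE 0.41, adjusted p = 0.0273), in 4 of 4 mice. The Csf3r call rested on mouse 545: without it the change was -0.33 (adjusted p = 0.430). The median of all genes moved by 0.95 in this step and haemoglobin took a median of 34.2% at week 8 against 47.2% at week 6, with 66.4% at week 7 between them, so the fall of the 6 genes ran against the general shift. After rescaling the falls were larger, at -3.87 for S100a9.

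Cxcr4 went the other way as deposited. It was at 35.6, 83.0, 75.5 and 49.9 TPM at week 8, against 18.2, 17.9, 41.3 and 108 TPM at week 6, higher in 3 of 4 mice (0.71, SE 0.37, adjusted p = 0.0853). Without mouse 545 the rise was 1.31 (adjusted p = 0.00154), and after rescaling the change was -0.43 (adjusted p = 0.121). Markers of B cells, which make CXCR4, were also higher: the summed level of 10 B cell genes had a median of 2987 TPM (2217 to 3716) at week 8, against 288 TPM (148 to 609) at week 6. Of 10 B cell genes 10 rose, where 69.7% of all genes were called higher, and the part of B cells in the Cxcr4 level was not tested.

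Against untreated CML mice over the same weeks, 5 of 7 genes fell more in TOTO mice: S100a8 by -2.92 (SE 0.63, adjusted p = 0.00131), S100a9 by -2.87 (SE 0.54, adjusted p = 0.000403), Fpr2 by -2.17 (SE 0.55, adjusted p = 0.00411), Fpr1 by -1.88 (SE 0.51, adjusted p = 0.0059) and Cxcr2 by -1.45 (SE 0.56, adjusted p = 0.0352), where 3.44% of all genes were called lower. Csf3r (-0.97, SE 0.56) and Cxcr4 (0.61, SE 0.50) did not pass, but Csf3r did after rescaling, at -1.97 (adjusted p = 0.000943), where 27.5% of all genes were called lower. The Cxcr2 call was lost without mouse 480, 483, 484, 541 or 545, with a change of -0.79 (adjusted p = 0.170) without 545. The TOTO mice were all of the batch that ends in A, which held 1 CML mouse with both weeks (S100a9 1.66, against -2.70 in the 4 TOTO mice).

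Whether transgene shut-off lowered these genes more or less than nilotinib depended on the scaling. As deposited S100a9 changed by -2.70 in TOTO and -2.68 in TKI mice, a difference of -0.02 (SE 0.51, adjusted p = 0.974), and Csf3r (1.13, adjusted p = 0.0477) and Cxcr4 (2.01, adjusted p = 0.000451) were higher in TOTO mice, where 80.8% of all genes were called higher and the change over all genes had a median of 1.39. With rescaled values Cxcr4 did not pass (0.24, adjusted p = 0.519), and S100a8 (-1.77), S100a9 (-1.84), Fpr1 (-0.93) and Fpr2 (-1.33) were lower in TOTO mice, where 27.0% of all genes were called lower. The Csf3r call was lost when any of 8 of the 11 TOTO and TKI mice was left out, and also without CML mouse 480, 487 or 541 or control mouse 489, whose cohorts share the estimate of the spread.

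The neighbours of these genes fell in the shut-off as well. Saa3 changed by -5.36, Camp by -3.60 and Anxa1 by -2.09, 3 of the 4 lower of 7 ligands. Of 17 other chemoattractant receptors 10 were lower, including C5ar1 (-1.80) and Mrgpra2b (-2.16), and 3 higher. Cd14 changed by -3.15, Cebpe by -1.35, Ly6g by -3.30, Retnlg by -3.41 and Ngp by -4.26. Of 20 mature neutrophil genes 15 were lower, and of 22 signalling genes 7 were higher and 0 lower. Of all genes, 4.48% were called lower and 69.7% higher.

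At week 18 the TOTO mice remained low. From week 6 to week 18, 6 of 7 genes fell, with changes of -1.11 (Csf3r, SE 0.37, adjusted p = 0.0273) to -2.76 (S100a8, SE 0.36, adjusted p = 8.95e-07), where 4.46% of all genes were called lower. The calls for Csf3r and Cxcr2 were lost without mouse 483 (adjusted p = 0.251 and 0.0678), and that for Csf3r without 545 (adjusted p = 0.0881). Cxcr4 changed by 0.51 (SE 0.39, adjusted p = 0.314). From week 0 to week 18, set against controls, 0 of 7 genes passed in limma and 0 of 7 had an unadjusted p under 0.05, with 0 of all genes called. The differences ran between -1.18 for S100a8 (SE 1.00) and -0.78 for Cxcr4 (SE 1.02), so that each difference was about as large as its error. In the batch that ends in A, S100a9 changed by -0.99 in 4 TOTO mice and 0.21 in 1 control mouse.

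**Figure D3:**
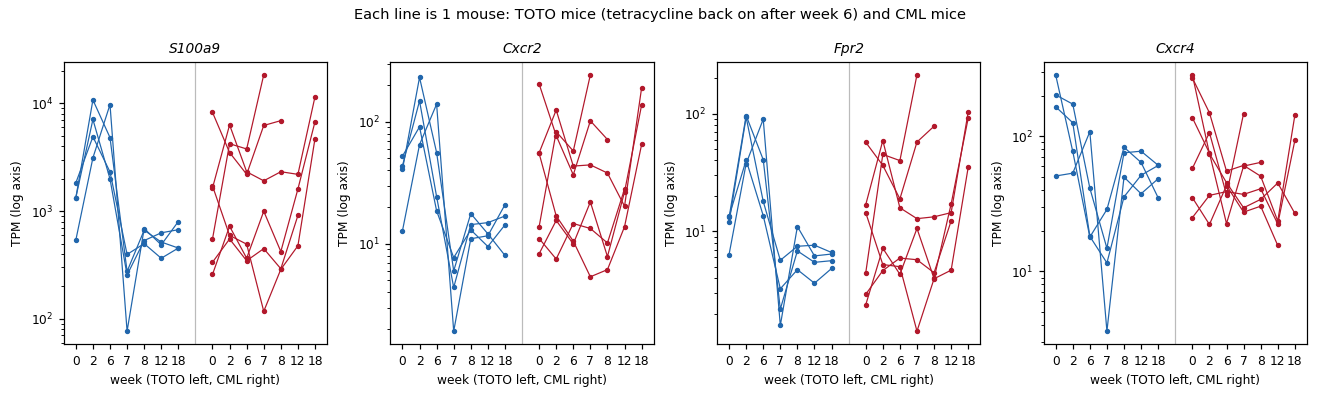
S100a9, Cxcr2, Fpr2 and Cxcr4 (TPM on log axes) at weeks 0 to 18 with 1 line for each mouse, TOTO mice on the left and CML mice on the right of each panel. The 4 TOTO mice close up at week 8, S100a9 at 499 to 689 TPM, and stay below their week 6 values of S100a9, while Cxcr4 is higher at week 8 than at week 6 in 3 of 4 mice as deposited, with a mean change of -0.43 after rescaling.

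Across the series the 7 genes were not a single unit, and Cxcr4 was the exception. With each mouse centred on its own mean, Pearson correlations over 298 libraries among S100a8, S100a9, Csf3r, Cxcr2, Fpr1 and Fpr2 ran between 0.876 (Csf3r with Fpr2) and 0.987 (S100a8 with S100a9). Those of Cxcr4 with the other 6 ran between 0.583 (S100a9) and 0.733 (Csf3r), and after rescaling between 0.33 and 0.489. These values describe libraries that share mice and composition and carry no test. The genes outside the 7 that were most like each one, among 5372 genes with a mean of at least 5 TPM, gave the same split. Of genes outside the 7, Retnlg was nearest to S100a8 (0.968) and S100a9 (0.974), Mmp8 to Fpr1 (0.974) and Fpr2 (0.976), Ccr1 to Cxcr2 (0.990) and Gcnt2 to Csf3r (0.971). Cxcr4 was nearest to Tsc22d3 (0.969), Rcsd1 (0.954) and Btg1 (0.946).

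The ratio of Cxcr2 to Cxcr4 is the same under any scaling of a library, apart from the added 1 TPM. As a log2 difference it had a median of -1.84 over the 57 control libraries and was below 0 in 54 of them. In TKI mice its median was -1.40 at week 0, 0.43 at week 6, -0.95 at week 8, -0.99 at week 10 and 0.92 at week 11. It was above 0 in 6 of 7 TKI mice at week 6, in 0 of 7 at week 8 and in 6 of 6 at week 11. From week 10 to week 11 the ratio changed by 1.55 ± 0.71 in TKI mice (SD, n = 6), higher in 6 of 6. Over that step it also changed by 0.56 ± 0.64 in CML mice (SD, n = 5), higher in 4 of 5, and by 0.82 ± 0.51 in control mice (SD, n = 3), higher in 3 of 3. In TOTO mice its median was -2.10 at week 0, 0.38 at week 6, -2.06 at week 8 and -1.52 at week 18, above 0 in 4 of 4 mice at week 6 and in 0 of 4 at weeks 8, 12, 16 and 18. In CML mice it was -1.79 at week 0, -0.92 at week 6 and 0.63 at the last week, above 0 in 2 of 6 mice at week 6 and in 5 of 6 at the end.

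Thus the median stood above 0 in TKI and TOTO mice at week 6, in CML mice at their last week and in TKI mice at week 11, but below 0 in CML mice at week 6. The change from week 6 to week 8 was -1.29 ± 0.77 in TKI mice (SD, n = 7), -2.30 ± 0.44 in TOTO mice (SD, n = 4), -0.25 ± 0.22 in CML mice (SD, n = 5) and -0.70 ± 1.36 in control mice (SD, n = 3). It was negative in 7 of 7 TKI, 4 of 4 TOTO, 4 of 5 CML and 1 of 3 control mice, and that control mouse changed by -2.27. At week 8 the ratio ran between -1.97 and -0.34 in TKI mice and between -2.27 and -1.95 in control mice, so that the lowest TKI mouse reached the control range. In 3 TKI mice at week 16 the median ratio had come back down to -0.37, with S100a9 still at 7027 to 14130 TPM.

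**Figure D4:**
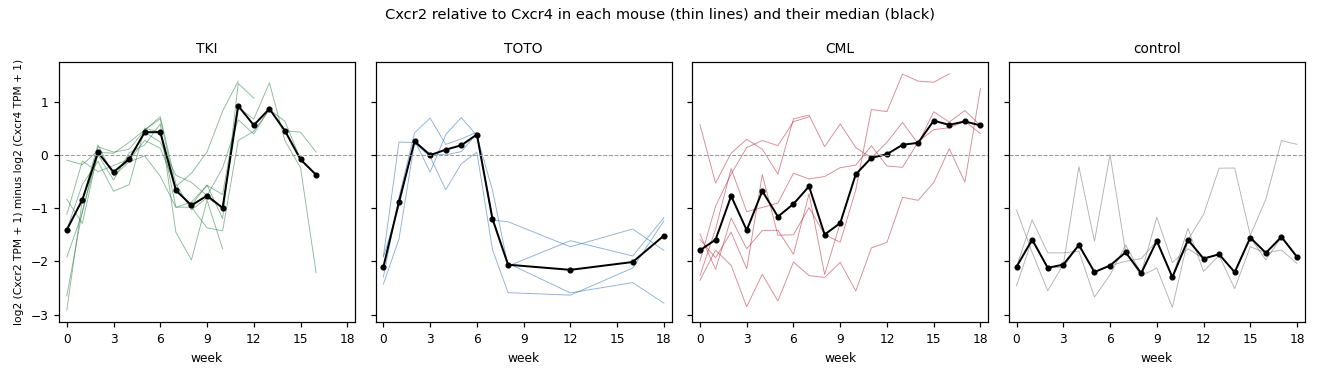
Log2 of Cxcr2 (TPM + 1) minus log2 of Cxcr4 (TPM + 1) by week in the TKI, TOTO, CML and control cohorts, with thin lines for mice, black points for their median and a dashed line where both genes are level. The control median over all weeks is -1.84, while the TKI and TOTO medians are above 0 at week 6 and below 0 at week 8, and the TKI median is at 0.92 at week 11.

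S100a9 relative to Csf3r shifted too. From week 0 to week 6 the log2 difference of S100a9 over Csf3r went up by 1.26 ± 0.35 in TKI (SD, n = 7), 2.11 ± 0.34 in TOTO (SD, n = 4), 0.75 ± 0.47 in CML (SD, n = 6) and 0.42 ± 0.42 in control mice (SD, n = 3). It was higher in 17 of 17 mice off Tet and in 2 of 3 controls. From week 6 to week 8 it came down by 1.66 in TOTO mice and 0.51 in TKI mice, in 4 of 4 and 7 of 7 mice. Over the same weeks it moved by 0.24 in CML mice and by -0.33 ± 0.38 in control mice (SD, n = 3), lower in 2 of 3, so that the TKI and control changes lay within about 1 SD of each other. From week 6 to week 7 alone it was higher in 6 of 7 TKI mice, by 0.16 on average.

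**Figure D5:**
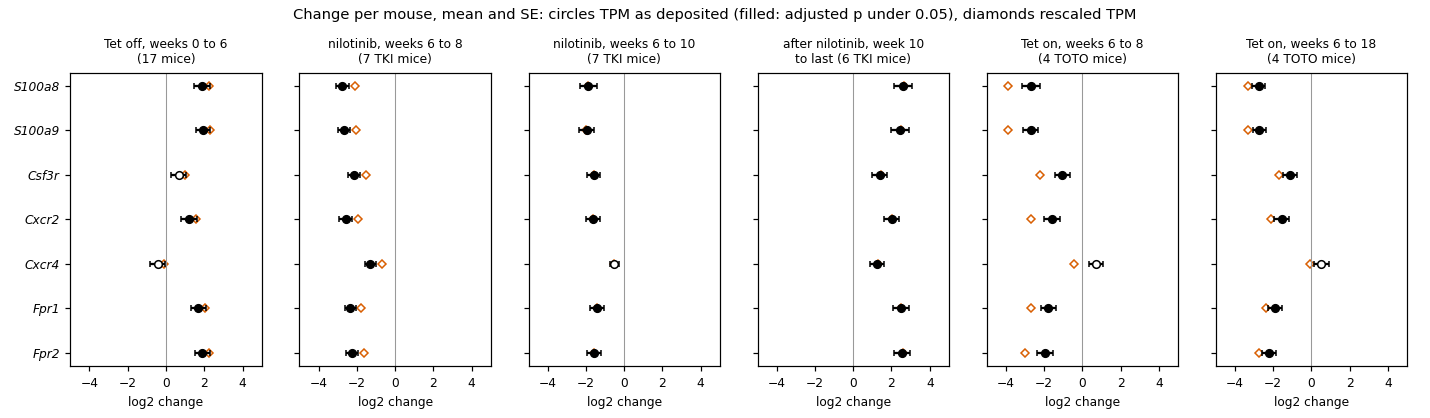
Mean log2 change per mouse of each gene in 6 comparisons, with SE bars; circles are TPM as deposited, filled where the adjusted p was under 0.05, and open diamonds are rescaled TPM. Cxcr4 lies nearest 0 of the 7 genes in each panel, and after Tet was returned its circles lie above 0 and its diamonds below.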

How the data were processed

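Blood RNA was depleted of ribosomal RNA, made into reverse-stranded libraries and, per the submitters' processing notes, handled with STAR and Salmon on GRCm39, versions not given in the sources used here. The authors deposited the values as TPM, each library summing to nearly the same total, so read depth is unknown and no counting error can be given. From these, the change of log2(TPM + 1) in each mouse was fitted with limma 3.58.1 (R 4.3.3) for the 10519 genes with a mean of at least 1 TPM, with eBayes trended on mean expression, and adjusted by Benjamini-Hochberg over all of them at 0.05. The mouse is the pairing unit: the same mouse was bled each week, and deviations from the cohort means correlated by 0.189 between weeks 0 and 6 within a mouse, against -0.00974 between mice. Rescaling divided each library by its median ratio over 4339 genes. GENCODE M39 named 14537 of 14605 genes. Genes named outside the 7 came from their lists by smallest p, up to 3 for each list in each of 3 comparisons, and their values are given in other comparisons too. The 7 genes and the 18 lists were chosen with earlier results of these data known. The fit was tested on simulated data. Alternatives left out each mouse, changed the filter, pseudocount, end week or scaling, dropped the block or added batch.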

Additional observations from a re-analysis of the deposited data

Results flagged for a closer look

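Differences between cohorts that passed their own test were collected. Over weeks 6 to 10 the change in TKI mice minus that in CML mice was -3.112 for S100a8, -3.143 for S100a9, -2.241 for Csf3r, -2.492 for Cxcr2, -2.267 for Fpr1 and -2.494 for Fpr2. Of all genes, 3.38% were called lower in that comparison. Over weeks 6 to 8 the change in TOTO mice minus that in CML mice was -2.924 for S100a8, -2.867 for S100a9, -1.445 for Cxcr2, -1.877 for Fpr1 and -2.168 for Fpr2, where 3.44% of all genes were called lower. Over the same weeks the change in TOTO mice minus that in TKI mice was 1.131 for Csf3r and 2.008 for Cxcr4. There 80.8% of all genes were called higher. After rescaling, the Csf3r difference changed sign and the Cxcr4 difference did not pass. From week 0 to week 6 Cxcr4 changed by 1.12 on average in TKI mice, upward in 7 of 7, against -2.774 to -0.4527 in control mice, downward in 3 of 3; the means lay 2.6297 apart and this difference for TKI mice alone was not tested; over all 17 mice off Tet it was 1.07 (SE 0.99, limma adjusted p = 1). After rescaling, Cxcr4 was higher in 4 of 7 TKI mice and 1 of 3 control mice. A rule on the gap to the nearest mouse, divided by the range of the group, flagged no mouse in 70 groups of 4 to 10 mice. Chance would flag about 1 in 20. In groups of 4 the rule passes over wide gaps. Over weeks 6 to 8, Csf3r changed by -3.16 in TOTO mouse 545, against -0.6437 to -0.1057 in the other TOTO mice, and was not flagged. CML mice over weeks 6 to 8 and 6 to 10 were not among the 70 groups. Over weeks 6 to 8, Fpr2 changed by 1.993 in CML mouse 484, against -0.3471 to -0.09472 in the other CML mice with both weeks.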

How the results depend on the processing

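Counts of genes past the threshold changed by more than 1.5 times in these settings. With rescaled values 1 of 7 passed for induction minus control, where 8.36% of all genes were called higher. In that setting 4 passed for CML at the last week minus control, where 3.75% of all genes were called higher. For shut-off minus nilotinib 4 passed, where 27.0% of all genes were called lower. With batch as a term 1 passed for CML minus control and 1 for shut-off minus nilotinib. Without a filter 0 passed for nilotinib minus CML and 1 for shut-off minus nilotinib, and with week 9 as the end 0 passed for nilotinib minus CML. Without haemoglobin and erythroid genes 1 passed for shut-off minus nilotinib. With no replicate block, that is with mice unpaired, 0 passed for nilotinib weeks 6 to 10, 0 for nilotinib minus CML, 3 for shut-off minus CML, 1 for shut-off minus nilotinib and 2 for shut-off weeks 6 to 18. Leaving out 1 mouse gave 0 to 6 for nilotinib minus CML and 1 to 3 for shut-off minus nilotinib. Apart from rescaling, the share of all genes called in these settings is not given here. Those counts therefore do not separate these genes from the number of genes that pass in general.

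Of 29 reversals of direction, all were of Cxcr4 or in shut-off minus nilotinib. From week 1 the change of Cxcr4 was 0.4979 for induction, -0.06415 against control and -0.1969 for CML at the last week minus control. That last difference was -0.1488 without haemoglobin and erythroid genes and ran between -0.6655 and 0.7528 without 1 mouse. With rescaled values Cxcr4 changed by -0.4262 (shut-off weeks 6 to 8), -0.3821 (minus CML) and -0.04886 (weeks 6 to 18). For shut-off minus nilotinib, rescaled values were -1.773 (S100a8), -0.6657 (Csf3r), -0.7133 (Cxcr2), -0.9341 (Fpr1) and -1.333 (Fpr2). Without haemoglobin and erythroid genes S100a8 was -0.4937 and Fpr2 -0.2264, and with batch S100a8 was -0.04973. Without 1 mouse S100a8 ran between -0.2914 and 0.5716 and S100a9 between -0.2837 and 0.3573. Unless stated in the report, the causes were not tested. Of 2023 alternatives for the 7 genes, 1878 kept both direction and side of the threshold. Read depth is unknown, so what it limits cannot be given, and each comparison with controls rests on 3 control mice.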
